A study of Mus musculus with 9 samples.

Results

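The genes described here encode the main cytosolic heat shock protein chaperones of the mouse, together with the mitochondrial pair HSP60 and HSP10. They are Hspa8, Hspa1a and Hspa1b of the HSP70 family, Hsph1, Hspa4 and Hspa4l of the HSP110 family, Hsp90aa1 and Hsp90ab1 of the HSP90 family, and Hspd1 and Hspe1. They were chosen by gene symbol, and 10 of the 46072 genes in the deposited tables matched, each symbol with 1 row. The choice was made with results of these libraries known, so the values below describe the family and are not an independent test of it. The working name of the family covers cytosolic chaperones, which holds for the first 8 genes but not for Hspd1 and Hspe1, whose proteins work in the mitochondrial matrix.

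RNA sequencing was performed on monocytes isolated from spleens of female C57BL/6 mice aged 8 to 10 weeks, in 3 groups of 3 libraries each. The Con group had water by gavage over 6 days. In the Van group the gavage was vancomycin, a poorly absorbed antibiotic, with each mouse given 2 mg a day in doses of 1 mg over the same time, and all mice then rested without antibiotic, for 6 to 8 days by the labels, and the study describes 8 days of rest for these groups. VanLip mice had the vancomycin gavage and also received L654, a lipid of gut bacteria that is sensed through the receptor TLR2, into the retro-orbital sinus on days 7, 9 and 11. The labels state that the other mice received no lipid and name no vehicle injection for them. The study's methods describe PBS as the vehicle in its L654 experiments, and whether the Con and Van mice sequenced here had it is not given in the sources used here, so injection and lipid may not be separable. Monocytes were enriched by removing other cells with magnetic beads and were not stimulated, and the study's methods give 3 mice in each group. P-values measure the spread between these libraries.

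Con and Van libraries had total counts of 43070361 to 61383806, and those of VanLip had 170503470 to 184720704. The commonest low count was 1.33 in every Con and Van library and 2.00 in every VanLip library, which is what reads of 100 and 150 bases give under the read length of 75 bases that the counting tool assumes. The study's methods give 100 bases for all libraries, so the longer VanLip reads are only inferred from the counts. Depth and this low count went with the VanLip group in every comparison with it. Depth could be matched by thinning, whereas what lies behind the low count and the treatment cannot be told apart. Markers of monocytes had a summed level of 9680 to 10410 FPKM in Con, 8208 to 10240 in Van and 9816 to 11710 in VanLip, where FPKM is the number of fragments relative to transcript length and to all fragments mapped. Markers of T cells and NK cells summed to between 1.38 and 3.06 FPKM over all libraries, and the 7 neutrophil markers, of which Ly6g was at 0 in each library, summed to between 2.15 and 12.1 FPKM. In bulk RNA, fewer cells of a type and less RNA per cell cannot be told apart.

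Chaperones bind proteins that are unfolded or still folding and help them to reach or regain their shape. HSP70 proteins do this in a cycle driven by ATP, with J-domain proteins that deliver the client and HSP110 proteins that exchange the nucleotide, and many clients are then passed to HSP90, which holds kinases and the glucocorticoid receptor ready for use. Hspa8 and Hsp90ab1 are made at all times, whereas Hspa1a and Hspa1b are the classic genes that heat and other protein stress switch on through heat shock factor 1, encoded by Hsf1. In macrophages and monocytes the same genes are known to respond to fever temperatures, oxidants and bacterial products, and to the handling of tissue.

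Sequence near the start sites is shown first because heat shock factors bind inverted repeats of the unit GAA. RefSeq windows on GRCm38.p6, each of 300 bases with 250 before the start site and 50 after, matched 7 of the 10 genes, in 9 windows, and Hspa8, Hsp90aa1 and Hsp90ab1 had no match. The 2-unit motifs GAANNTTC and TTCNNGAA read the same on both strands, and at least 1 of them was found in 5 of these 7 genes, compared with 15.1% of all 32851 promoter windows. The motif with 3 units, GAANNTTCNNGAA or its reverse TTCNNGAANNTTC, which contains the 2-unit motifs, was found in Hsph1, Hspd1 and Hspe1, compared with 0.603% of all windows. No match was found in the windows of Hspa4 and Hspa4l or in a further window of Hspd1. The word exonic below means inside an exon of the GENCODE M21 annotation, whereas the windows are set by RefSeq start sites. With the RefSeq start site as 0, the first Hsph1 match began at positions -54 and -33 in its windows and the Hspd1 match at -144. The stretches of 30 bases that hold the matches are printed 5′ to 3′ on the strand of the gene, with the motif in capitals:
Hsph1, exonic, chr5:149636351-149636380, minus strand: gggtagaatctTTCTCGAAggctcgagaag
Hsph1, exonic, chr5:149636279-149636308, minus strand: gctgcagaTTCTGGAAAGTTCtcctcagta
Hspa1a, before the gene, chr17:34972242-34972271, minus strand: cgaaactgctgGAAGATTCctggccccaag
Hspa1b, before the gene, chr17:34959324-34959353, minus strand: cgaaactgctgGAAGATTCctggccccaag
Hspd1, exonic, chr1:55088053-55088082, minus strand: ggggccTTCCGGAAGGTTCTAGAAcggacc
Hspe1, the same place, chr1:55088053-55088082, plus strand: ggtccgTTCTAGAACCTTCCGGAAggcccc

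Hspd1 and Hspe1 lie head to head on chromosome 1 with 112 bases of overlap on opposite strands, so their match is 1 place of 18 bases read from both sides. It begins at position -89 of Hspe1, with the start site as 0, and lies inside an exon of Hspd1. Hspa1a and Hspa1b are single-exon genes on chromosome 17 with 9951 bases between them. The motif begins at position -104 in both, and the 250 bases before their start sites match at 247 positions. The upstream sequence of Hspa1a, chr17:34972157-34972406, minus strand, GRCm38.p6, is printed because Hspa1a and Hspa1b had the largest fitted differences of all the chaperone genes in both contrasts with VanLip and share this sequence almost in full, with the motif in capitals:
Hspa1a: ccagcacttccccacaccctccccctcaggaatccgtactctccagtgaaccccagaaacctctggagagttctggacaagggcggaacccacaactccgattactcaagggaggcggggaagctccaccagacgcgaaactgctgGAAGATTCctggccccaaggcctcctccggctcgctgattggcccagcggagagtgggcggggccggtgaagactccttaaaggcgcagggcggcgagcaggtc
A match gives the letters in the window and does not show that a factor was bound there.

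In Con monocytes the family ran from Hspa8, which ranked 103 among all genes by mean FPKM, to Hspa4l, which ranked 8021. Hspa8, the constitutive HSP70, had 529.9 ± 19.8 FPKM in Con (SD, n = 3) and Hsp90ab1, the constitutive HSP90, had 330.9 ± 42.5. Next came a tier of 4 genes whose neighbours in the order overlapped between libraries. These were Hspa1b at 56.3 ± 27.3 FPKM, Hsp90aa1, the stress-responsive HSP90, at 49.9 ± 3.98, Hspa1a at 49.5 ± 25.2 and Hspe1, which caps the HSP60 barrel, at 36.8 ± 3.13 (SD, n = 3 each). Hspa4, an HSP110 protein that exchanges nucleotide on HSP70, had 29.4 ± 1.9 FPKM and overlapped with Hspd1, which encodes HSP60 itself, at 28.9 ± 2.05. Hsph1, which encodes HSP110 itself, had 8.99 ± 0.978 FPKM and Hspa4l, its close relative, 4.57 ± 0.759. The order changed in the other groups mainly through Hsph1, Hspa1a and Hspa1b: Hsph1 ranked 5809 among all genes in Con, 2220 in Van and 7001 in VanLip, and Hspa1a ranked 1319 in Con and 8097 in VanLip.

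**Figure D1:**
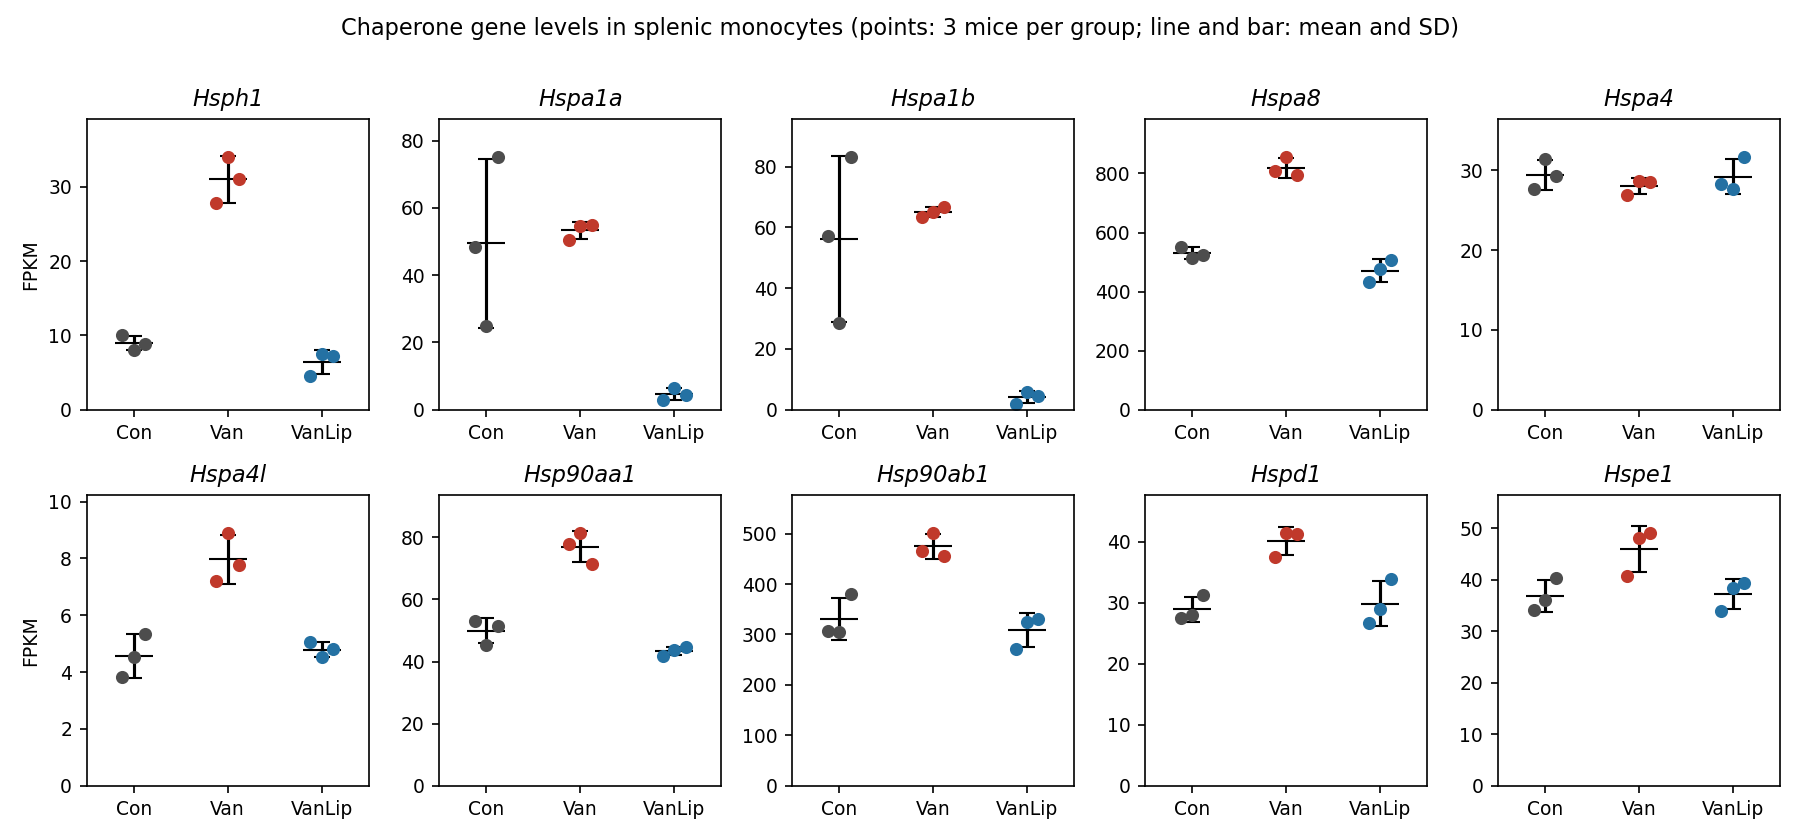
Level in FPKM (vertical axes, each from 0) of each of the 10 chaperone genes in Con, Van and VanLip monocytes, with 1 point per library and a line and bar for the mean and SD of 3 libraries. The Van points lie above the Con and VanLip points for Hsph1, Hspa8, Hspa4l, Hsp90aa1, Hsp90ab1, Hspd1 and Hspe1, the VanLip points of Hspa1a and Hspa1b lie close to 0, and the 3 groups of Hspa4 overlap.

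Hspa8 (ENSMUSG00000015656, chr9:40800984-40810087, plus strand, with 3 small nucleolar RNA genes inside it) read 551.8, 513.3 and 524.4 FPKM in Con, 808.0, 857.0 and 793.5 in Van, and 431.1, 477.0 and 505.8 in VanLip. Each Van library was above every other library, and the VanLip libraries were below those of Con. The fitted change of Hspa8 was 0.60 on the log2 scale for Van against Con (SE 0.0701, 95% interval 0.462 to 0.737), a 1.52-fold higher level. VanLip lay below Van by 1.70-fold, and its log2 change against Con had a 95% interval from -0.302 to -0.0272 and a DESeq2 adjusted p of 0.151.

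Hspa1a (chr17:34969190-34972156, minus strand) read 48.4, 24.9 and 75.3 FPKM in Con, 50.4, 54.8 and 54.8 in Van, and 2.77, 6.37 and 4.53 in VanLip. Hspa1b (chr17:34956436-34959238, minus strand) read 57.0, 28.7 and 83.3 FPKM in Con, 63.4, 65.0 and 66.9 in Van, and 1.97, 5.99 and 4.44 in VanLip. For both genes the Con libraries were spread on either side of Van, with Con replicate 2 lowest and Con replicate 3 highest, and every VanLip library was below every Con and Van library. The log2 change of Hspa1a was 0.10 for Van against Con, with a 95% interval from -0.738 to 0.938, which leaves room for a change of either sign. VanLip was below Con by 11.0-fold for Hspa1a and 13.8-fold for Hspa1b, and below Van by 11.8-fold and 15.9-fold. The fitted log2 changes for VanLip against Van were -3.56 for Hspa1a (SE 0.428) and -3.99 for Hspa1b (SE 0.460).

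The transcripts of Hspa1a and Hspa1b share much of their sequence, so reads can be placed on either. They were identical at 93.6% of aligned bases, 47.1% of the 100-base windows of Hspa1a occurred in Hspa1b, and 38.1% of its 150-base windows did. The ratio of Hspa1b to Hspa1a was 1.11 to 1.18 in Con, 1.187 to 1.258 in Van and 0.711 to 0.979 in VanLip, so it was lower in the VanLip libraries, whose low counts also differed. The summed counts of both genes do not depend on how reads are split between them, and the summed FPKM does so only through their slightly different lengths. The latter was 53.6 to 158.5 FPKM in Con, 113.7 to 121.6 in Van and 4.74 to 12.4 in VanLip, and the summed counts were 12.3-fold lower in VanLip than in Con and 13.7-fold lower than in Van. An antisense gene, Gm20481, overlaps Hspa1a, and although the library kit marks strand, whether the counting used strand is not given in the sources used here.

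Hsph1 (ENSMUSG00000029657, chr5:149614287-149636376, minus strand, 19 exons) encodes HSP110, which exchanges nucleotide on HSP70 and helps it to pull apart aggregates. It read 10.0, 8.05 and 8.91 FPKM in Con, 27.8, 34.0 and 31.1 in Van, and 4.60, 7.51 and 7.18 in VanLip. The 3 groups did not overlap, with Van at the top and VanLip at the bottom. The fitted difference was 3.37-fold between Van and Con, with a 95% interval of 1.45 to 2.06 on the log2 scale, and 4.57-fold between Van and VanLip. For VanLip against Con the log2 value was -0.44 (SE 0.154), with a DESeq2 adjusted p of 0.059. In Con, Hsph1 was at 0.256 to 0.362 of the level of Hspa4, in Van at 1.03 to 1.19, and in VanLip at 0.163 to 0.271.

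The other HSP110 genes behaved unlike each other. Hspa4l (chr3:40744495-40796103, plus strand) read 3.82, 4.55 and 5.33 FPKM in Con, 7.22, 8.91 and 7.77 in Van, and 5.04, 4.52 and 4.80 in VanLip. All Van libraries were above all others, by 1.73-fold over Con and 1.67-fold over VanLip, while Con and VanLip overlapped. Hspa4 (chr11:53259814-53300457, minus strand) read 27.6, 31.4 and 29.3 FPKM in Con, 26.9, 28.6 and 28.6 in Van, and 28.2, 27.7 and 31.7 in VanLip. Its groups overlapped in each comparison, and the 95% intervals of its log2 change ran from -0.231 to 0.107 for Van against Con and from -0.128 to 0.209 for VanLip against Van. These intervals leave out a change of the size seen for Hspa8, whose log2 value for Van against Con was 0.60.

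The HSP90 genes were both highest in Van. Hsp90ab1 (chr17:45567775-45573271, minus strand) read 307.4, 305.4 and 379.9 FPKM in Con, 466.5, 502.2 and 455.6 in Van, and 270.5, 324.2 and 331.4 in VanLip. Hsp90aa1 (chr12:110690605-110702728, minus strand) read 53.0, 45.4 and 51.3 FPKM in Con, 78.0, 81.6 and 71.5 in Van, and 41.8, 43.8 and 44.5 in VanLip. Neither gene's Van libraries overlapped with those of Con or VanLip, and the difference from Con was 1.43-fold for Hsp90ab1 and 1.55-fold for Hsp90aa1. The ratio of Hsp90ab1 to Hsp90aa1 was 5.80 to 7.40 in Con, 5.98 to 6.37 in Van and 6.47 to 7.44 in VanLip, so Con overlapped with both other groups and Van lay below VanLip. VanLip against Con gave a log2 value of -0.23 for Hsp90aa1 (SE 0.0794), at a DESeq2 adjusted p of 0.0505, and -0.11 for Hsp90ab1 (SE 0.10).

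The mitochondrial pair was also highest in Van, while its Con and VanLip libraries overlapped. Hspd1 (chr1:55077835-55088243, minus strand) read 27.6, 27.9 and 31.3 FPKM in Con, 37.5, 41.5 and 41.3 in Van, and 26.7, 28.9 and 33.9 in VanLip. Hspe1 (chr1:55088132-55091307, plus strand) read 34.1, 35.9 and 40.2 FPKM in Con, 40.8, 48.0 and 49.1 in Van, and 33.9, 38.4 and 39.2 in VanLip. Van was higher than Con by 1.35-fold for Hspd1 and 1.24-fold for Hspe1, and the lowest Van library of Hspe1 stood only just above the highest of Con. That difference of Hspe1 had a DESeq2 adjusted p of 0.0458, near the threshold of 0.05, and was called or not depending on the setting. Of 7 pseudogene copies that carry the symbol of Hspd1 or Hspe1, 2 were at 0 and none went above 1.83 FPKM. So little of the signal was assigned to these copies, and copies under other names were not sought.

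Over all 10 genes the summed level of the 3 libraries averaged 1125 ± 101.9 FPKM (SD) for Con, 1643 ± 68.3 for Van and 939.5 ± 83.2 for VanLip. The libraries ranged from 1026 to 1229 in Con, from 1600 to 1722 in Van and from 846.7 to 1007 in VanLip, without overlap. As a share of all FPKM this was 0.261% to 0.307% in Con, 0.407% to 0.435% in Van and 0.217% to 0.259% in VanLip. Hspa8 made up 42.7% to 50.1% of the sum in Con, 49.6% to 50.3% in Van and 49.5% to 50.9% in VanLip. The heat-inducible genes Hspa1a and Hspa1b made up 5.22% to 12.9% in Con and 6.96% to 7.60% in Van but 0.560% to 1.28% in VanLip. The share of the inducible pair in Van lay within its range in Con, and its share in VanLip lay below both.

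**Figure D2:**
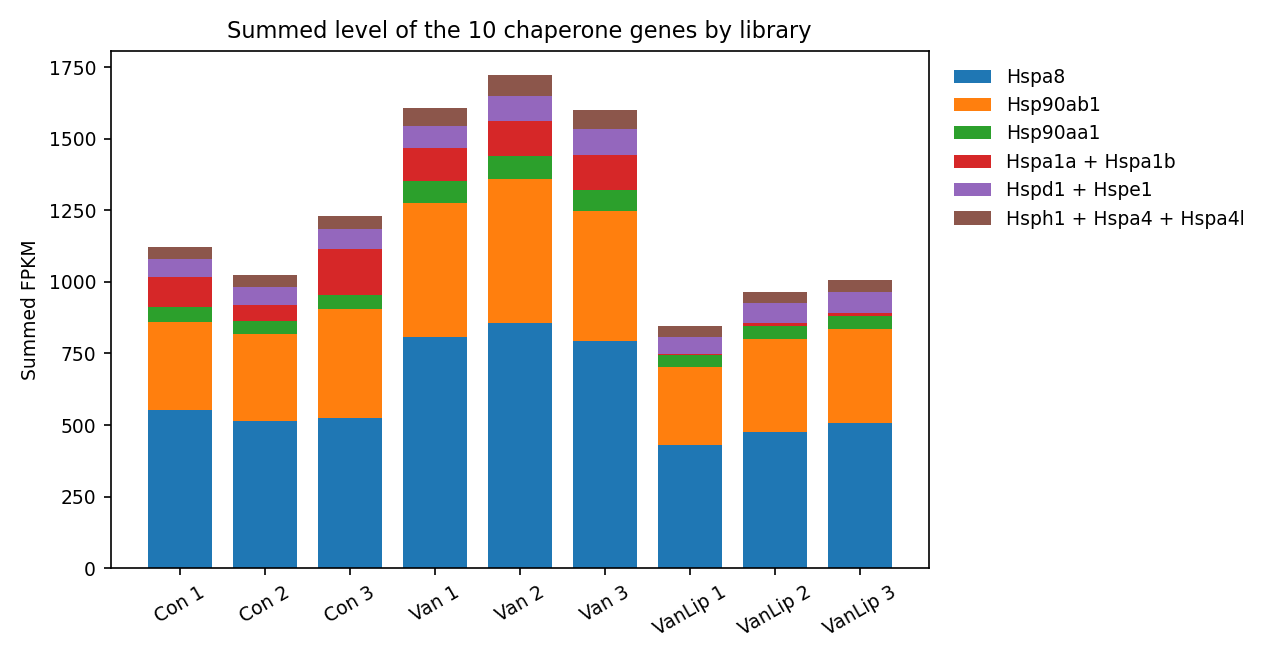
Summed FPKM of the 10 chaperone genes in each of the 9 libraries (vertical axis from 0), divided by gene or gene group as coloured. The Van bars reach 1600 to 1722, the Con bars 1026 to 1229 and the VanLip bars 846.7 to 1007, and the part of Hspa1a and Hspa1b is 53.6 to 158.5 in Con and 4.74 to 12.4 in VanLip.

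Set side by side, the 3 contrasts share groups of libraries, so their values are not independent of each other. A gene was called at a DESeq2 adjusted p of 0.05 or under in a fit of all genes. For Van against Con, 7 of the 10 chaperone genes were called, all higher, where 4.34% of all genes tested were called and 2.27% were called higher. With limma on log2(FPKM + 1) the count was 3, as Hspa4l, Hsp90ab1, Hspd1 and Hspe1 were not called, and 92 of all 26108 genes were called. The count was 1 with log2(FPKM + 0.1), where 17 of 26108 genes were called. With a filter on mean FPKM it was 4, where 90 of 11710 genes were called. The median log2 change of the 10 was 0.47, against -0.01 over all genes tested. Hspa1a, Hspa1b and Hspa4 were not called. The libraries of Van and Con did not overlap for 7 of the 10, all higher in Van, compared with 12.7% of genes with a mean normalised count of at least 50. For VanLip against Van, 9 were called, all lower, where 9.86% of all genes were called, 4.58% higher and 5.28% lower, and the median was -0.75 against 0.01 over all genes. Libraries did not overlap for 9, all lower in VanLip, compared with 14.4% of genes. For VanLip against Con, Hspa1a and Hspa1b were called, both lower, where 6.67% of all genes were called, 2.98% higher and 3.69% lower, and the median was -0.14 against 0.01. Libraries did not overlap for 5, all lower in VanLip, compared with 11.3% of genes. The count of called chaperone genes was 5 without VanLip replicate 3, since Hsph1, Hspa8 and Hsp90aa1 were then called lower as well. In that fit 1276 of 15664 genes tested were called. As the choice of the genes used these contrasts, nothing is read from these counts.

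**Figure D3:**
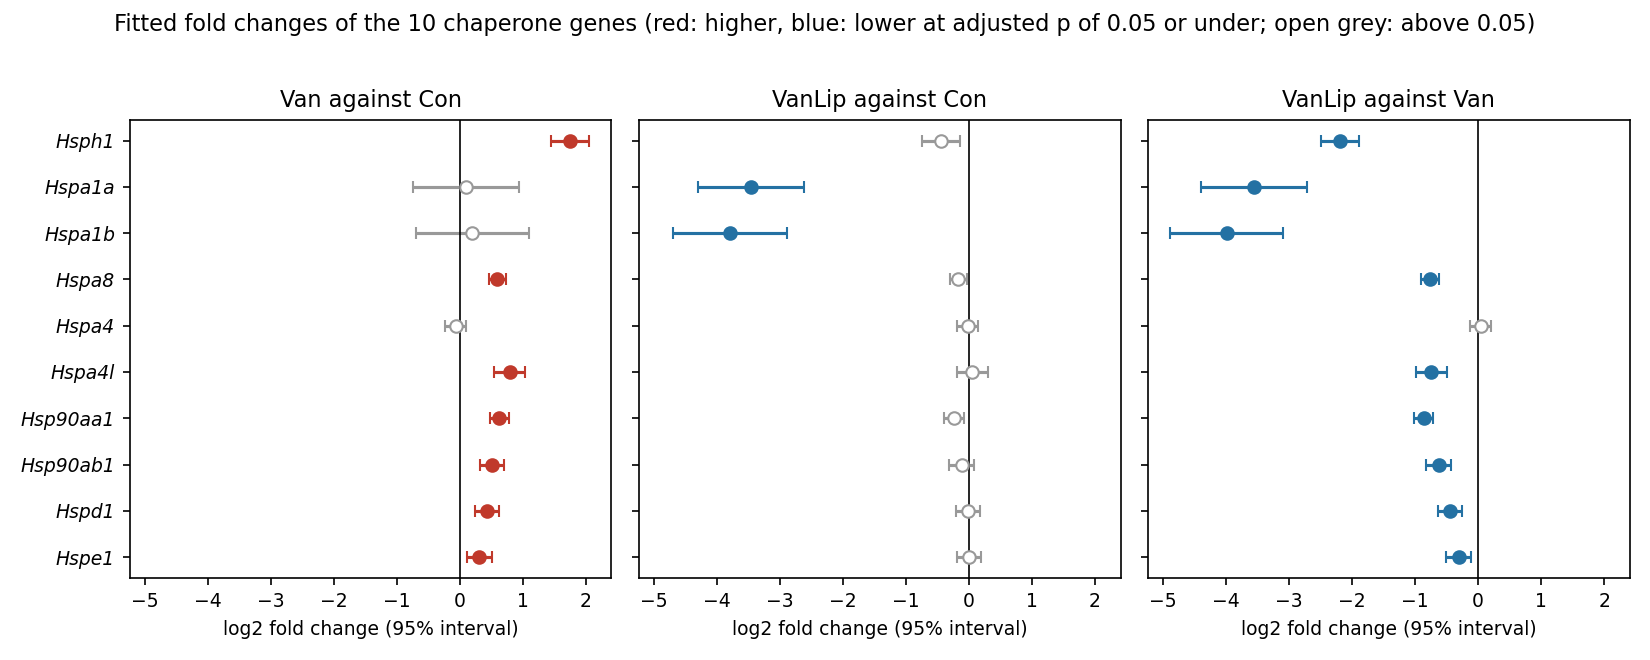
Fitted log2 fold change with its 95% interval (horizontal axes) of each chaperone gene in Van against Con, VanLip against Con and VanLip against Van, with red and blue filled points for genes called higher and lower and open grey points for the others. Hsph1 lies at 1.75 for Van against Con, Hspa1a and Hspa1b lie at -3.46 and -3.79 for VanLip against Con, and the intervals of Hspa4 cross 0 in all 3 panels.

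Across the 9 libraries the chaperone genes fell into 3 kinds of profile, described by Pearson's r of log2 normalised counts. Hspa1a and Hspa1b followed each other with r of 0.998, which their shared reads and their low VanLip libraries both enter. Hsph1 and Hspa8 had r of 0.991, Hspa8 and Hsp90aa1 0.990, Hsp90ab1 and Hspd1 0.958, and Hspe1 and Hspd1 0.936. Hspa4 followed none of them, as its highest r with another chaperone was -0.051. Since 3 groups of libraries lie behind these values, they largely describe the group differences given above.

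Genes outside the family with the most similar profile were sought among 13493 genes by r with the mean of the standardised chaperone values over the 9 libraries. The 10 nearest were Zfp566 (r = 0.974), Sema6d (0.973), Slc5a3 (0.970), Pik3r1 (0.968), Mapk14 (0.967), Atad2 (0.966), Spast (0.965), Dnajb2 (0.961), Camta2 (0.960) and Cttnbp2nl (0.957). Among them Dnajb2 encodes a J-domain partner of HSP70.

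The proteins that work with these chaperones were described from lists of genes. For the list counts here and below, the calls over all genes tested serve as background. DESeq2 called 4.34% of them in Van against Con, 6.67% in VanLip against Con and 9.86% in VanLip against Van. In the same order, the quasi-likelihood test of edgeR called 204, 300 and 855 of 16867 genes. With limma on log2(FPKM + 1), 92, 237 and 688 of 26108 genes were called. HSP90 acts with co-chaperones that load clients, set the speed of its ATPase or bind its tail, and 6 of 13 measured were called higher in Van than in Con and none lower, with a median log2 change of 0.24. Fkbp5, a peptidyl-prolyl isomerase of HSP90 complexes that is also a classic target gene of the glucocorticoid receptor, read 3.79, 5.64 and 3.85 FPKM in Con, 25.2, 26.7 and 43.8 in Van, and 8.25, 9.89 and 5.13 in VanLip. It was 7.15-fold higher in Van than in Con (DESeq2 adjusted p = 6.21e-13) and 4.14-fold lower in VanLip than in Van (adjusted p = 3.59e-07). Stip1, which links HSP70 to HSP90, rose 2.00-fold in Van (adjusted p = 1.81e-14). Fkbp4, a related isomerase, rose 1.78-fold, Chordc1 1.74-fold and Ahsa1, the activator of the HSP90 ATPase, 1.41-fold. In VanLip against Van, 6 of the 13 were called lower and none higher, with Stip1 lower by 1.92-fold, Chordc1 by 1.83-fold, Fkbp4 by 1.56-fold and Ptges3, the p23 co-chaperone, by 1.53-fold. In VanLip against Con, Nudc alone was called, higher with a log2 change of 0.30 (DESeq2 adjusted p = 0.0475). The quasi-likelihood test of edgeR called 6, 0 and 6 of the 13 in Van against Con, VanLip against Con and VanLip against Van, and limma on log2(FPKM + 1) called 3, 0 and 6.

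Of 16 co-chaperones of cytosolic HSP70, 3 were called higher in Van than in Con and none lower, with a median log2 change of 0.10. They were the J-domain protein gene Dnaja1, 1.60-fold higher, St13, which holds HSP70 in its client-bound state, 1.31-fold higher, and Bag3, which links HSP70 to autophagy, 1.28-fold higher. In VanLip against Van, 4 were called lower, namely Dnaja1 by 2.16-fold, Dnajb4 by 1.44-fold, Dnajb1 by 1.42-fold and St13 by 1.29-fold. Stub1, a ubiquitin ligase for HSP70 clients, went the other way and was called 1.27-fold higher in VanLip than in Van and 1.31-fold higher than in Con. Dnaja1 was also lower in VanLip than in Con, by 1.36-fold (DESeq2 adjusted p = 1.35e-12). For Van against Con, VanLip against Con and VanLip against Van, edgeR called 1, 2 and 4 of the 16, and limma called 1, 2 and 3.

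**Figure D4:**
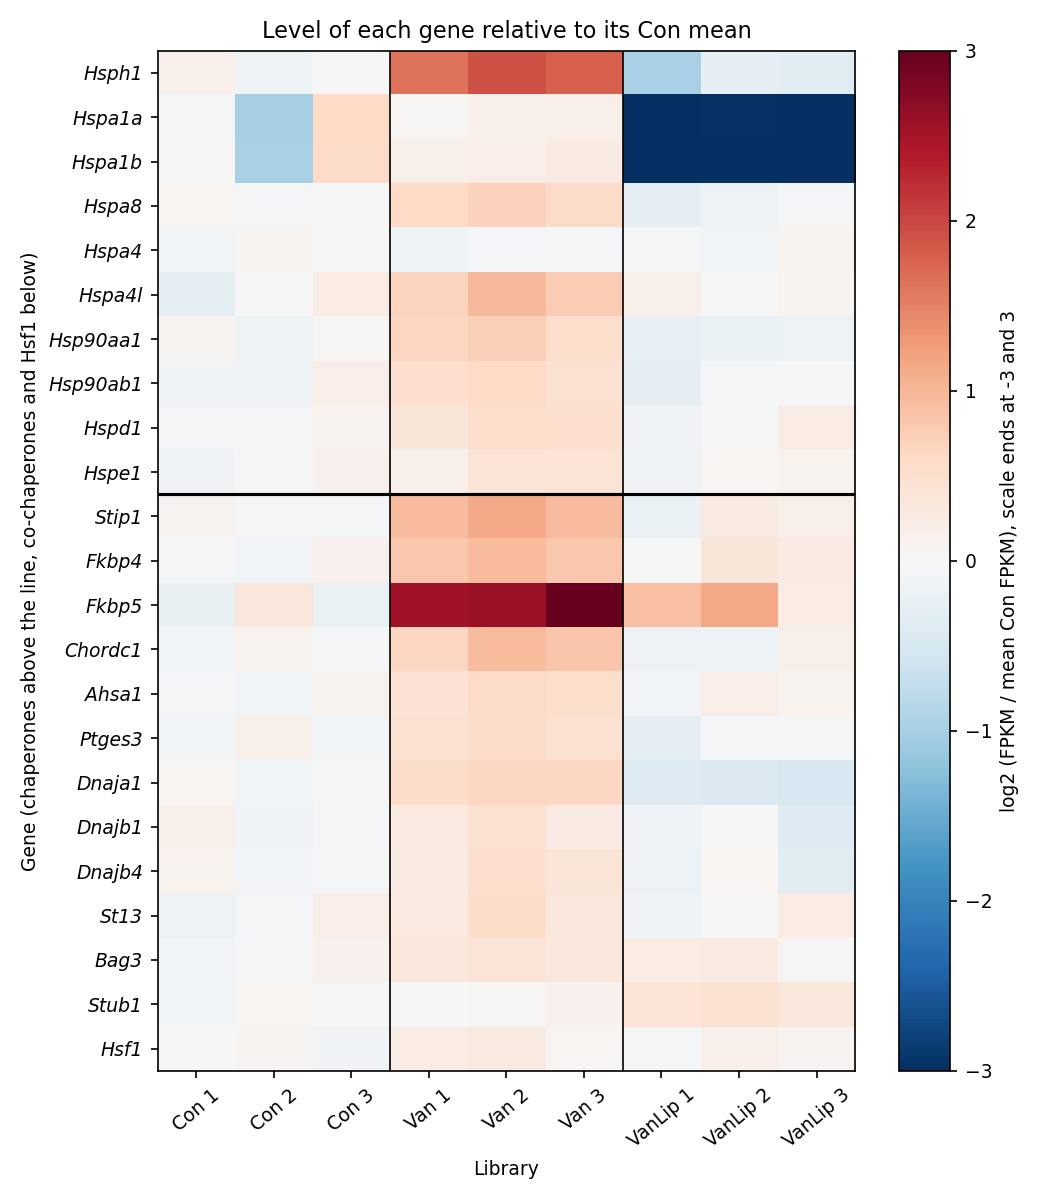
Log2 ratio of each gene's FPKM to its mean in Con (colour, with the scale ending at -3 and 3) for the 10 chaperone genes above the thick line and co-chaperones with Hsf1 below it, in the 9 libraries. Hsph1, Hspa8 and the 6 HSP90 co-chaperones shown are red in the 3 Van libraries, Fkbp5 most of all, and Hspa1a and Hspa1b lie at or near the low end of the scale in the VanLip libraries.

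Other genes of the heat shock and folding system were described in the same way. Hsf1, the gene of the main heat shock factor, had a log2 change of 0.17 in Van against Con (adjusted p = 0.375). It had a log2 change of 0.04 in VanLip against Con (adjusted p = 0.891) and -0.14 in VanLip against Van (adjusted p = 0.434), by DESeq2. A list of heat shock factors, small heat shock proteins and other heat shock genes had 8 tested genes. None of the 8 was called in Van against Con, VanLip against Con or VanLip against Van by DESeq2, edgeR or limma. In the same order, 0, 0 and 1 of them had a DESeq2 unadjusted p under 0.05, and 2822, 3315 and 3930 of all 25441 genes fitted did. Among 11 further HSP70 and HSP90 genes was Hspa1l, which lies 546 bases from Hspa1a on the other strand. Its level was low, with a mean of 1.515 FPKM in Con, 1.923 in Van and 0.3441 in VanLip. Hspa1l was lower in VanLip than in Con by 4.43-fold (DESeq2 adjusted p = 0.000165). These groups overlapped, as Con replicate 2 was at 0.4415 FPKM and VanLip replicate 2 at 0.4799. It was lower in VanLip than in Van by 5.62-fold (adjusted p = 2.39e-06), without overlap, as the lowest Van library was at 1.637 FPKM. Hsp90b1 and Hyou1 of the endoplasmic reticulum were called higher in Van than in Con, with log2 changes of 0.36 and 0.40. Of these 11 genes edgeR called 0 in Van against Con, 0 in VanLip against Con and 2 in VanLip against Van. Limma called 0 of them in each contrast.

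Of the 8 subunits of the cytosolic chaperonin CCT, which folds actin and tubulin, 3 were called higher in Van than in Con, with Cct3 at 1.30-fold, Cct4 at 1.17-fold and Cct8 at 1.16-fold, and all of these 3 were called lower in VanLip than in Van. Among 14 chaperones of the endoplasmic reticulum 4 were called higher in Van than in Con, with the disulfide isomerases Pdia4 and Pdia6 beside Hsp90b1 and Hyou1, and 2 lower in VanLip than in Van, with Hspa5, the HSP70 of that compartment, lower by 1.33-fold in VanLip. For Van against Con, edgeR called 1 of the CCT subunits and 0 of the reticulum chaperones, and for VanLip against Van it called 1 of each and limma 1 and 0. In Van against Con limma called 0 in both lists, while all 8 CCT subunits and 9 reticulum chaperones had a DESeq2 unadjusted p under 0.05, all higher in Van. In VanLip against Van 7 of the CCT subunits and 6 of the reticulum chaperones had one, all lower in VanLip. None of 11 other mitochondrial chaperones and proteases was called in any contrast by DESeq2, edgeR or limma, at median log2 changes of 0.08, 0.08 and -0.05. Of these 11 genes 2, 0 and 1 had a DESeq2 unadjusted p under 0.05. Over all 25441 genes fitted, 2822, 3315 and 3930 had one in Van against Con, VanLip against Con and VanLip against Van. Hspa9, the mitochondrial HSP70, had a log2 change of 0.14 in Van against Con (DESeq2 adjusted p = 0.303).

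**Figure D5:**
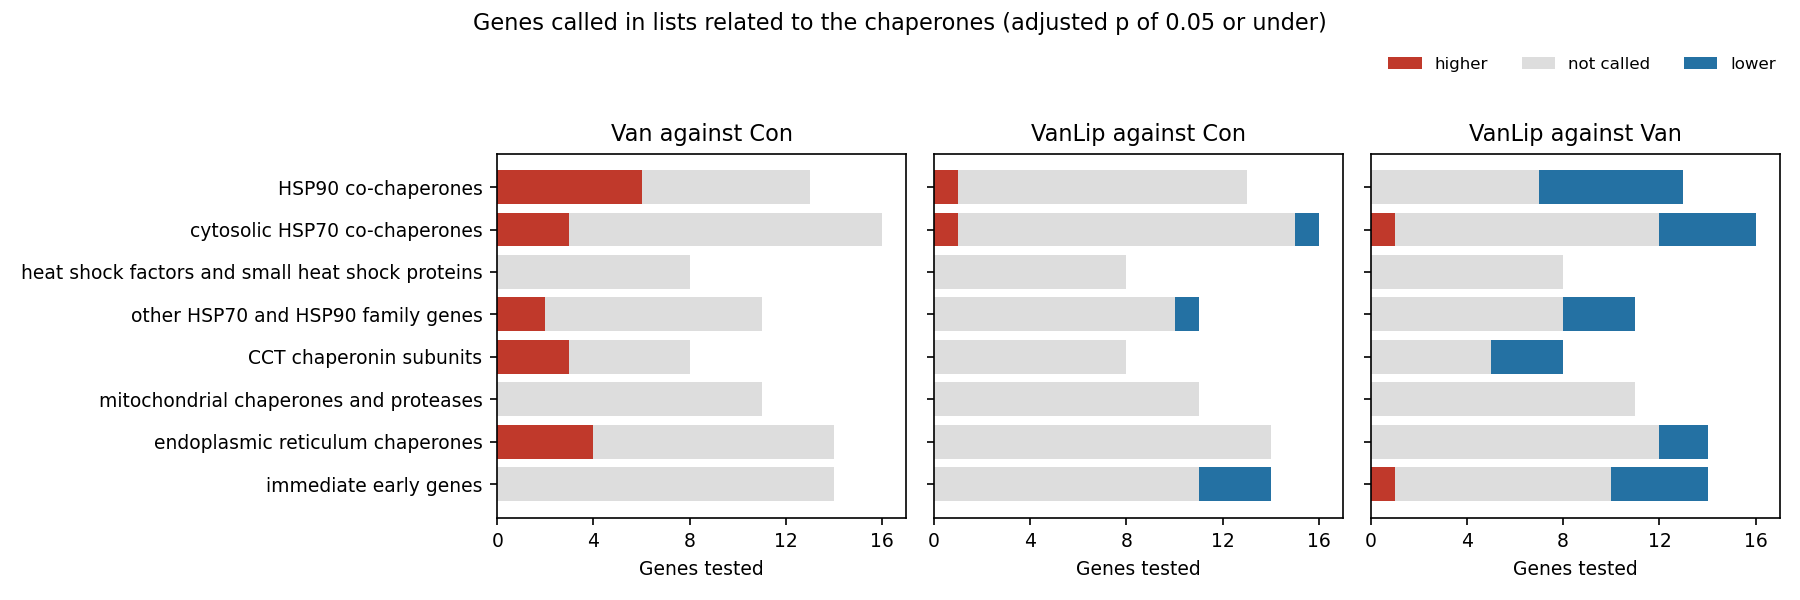
Number of genes tested (horizontal axes) in each of 8 lists related to the chaperones, divided into genes called higher, not called and called lower at a DESeq2 adjusted p of 0.05 or under, for the 3 contrasts. HSP90 co-chaperones have 6 of 13 called higher in Van against Con and 6 called lower in VanLip against Van, and mitochondrial chaperones and proteases have none called.

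Several features of the libraries moved with these values. The low level of Hspa1a and Hspa1b went with the VanLip group, which also had the larger commonest low count and the greater depth, and their part in the result was tested only as far as depth. With the VanLip fragments thinned to 20146290 per library, the log2 change in VanLip against Con was -3.38 for Hspa1a and -3.76 for Hspa1b. Immediate early genes, which tissue handling can induce as it can Hspa1a, moved in part with the chaperones. In VanLip against Van, 4 of 14 were called lower and 1 higher, while edgeR called 3 and limma 2. Atf3, a stress-responsive transcription factor, was lower by 1.46-fold, Jund by 1.41-fold, Fosb by 1.36-fold and Jun by 1.45-fold, and Junb was higher with a log2 change of 0.33. In VanLip against Con edgeR and limma each called 1, and DESeq2 called 3, all lower. These 3 were Atf3 with a log2 change of -0.61 (DESeq2 adjusted p = 4.95e-08), Egr1 with -0.59 (adjusted p = 0.0232) and Btg2 with -0.34 (adjusted p = 0.023). In Van against Con, where 2822 of 25441 genes fitted had a DESeq2 unadjusted p under 0.05, 3 of the 14 did. None of the 14 immediate early genes was called there by DESeq2, edgeR or limma. Their summed level was 5132 to 6876 FPKM in Con, 5663 to 6127 in Van and 5083 to 5834 in VanLip, so the groups overlapped, and their part in the level of Hspa1a, Hspa1b and the other chaperones was not tested.

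Markers of cell types differed between groups as well. Ccr2, the receptor that marks classical monocytes, was lower in Van than in Con by 1.78-fold (DESeq2 adjusted p = 0.00048) and higher in VanLip than in Van by 2.06-fold, the reverse of the chaperones. Of the 10 monocyte markers, 1 was called in Van against Con and 3, all higher, in VanLip against Van. Red pulp macrophage markers summed to 956.1 to 1158 FPKM in Con, 1075 to 1486 in Van and 993.6 to 1184 in VanLip, and 1 of 6, Vcam1, was called higher in Van than in Con and lower in VanLip than in Van, by 1.41-fold, in the direction of the chaperones. Erythroid and platelet markers summed to 118.9 to 211.9 FPKM in Con, 350.4 to 781.1 in Van and 281.9 to 1172 in VanLip, with 5 of 8 called higher in Van and 5 in VanLip, each against Con. The 5 were globin genes and Alas2, while the platelet markers Ppbp, Pf4 and Itga2b had log2 changes of -0.55, -0.64 and -0.68 in Van and of -0.95, -0.86 and -0.65 in VanLip, and were not called. With edgeR 0 of the monocyte, red pulp and erythroid markers were called in Van against Con, and 5 erythroid and platelet markers in VanLip against Con. Limma on log2(FPKM + 1) called 0 in these lists in both contrasts with Con. In VanLip against Van, edgeR called 2 of the monocyte and 1 of the red pulp markers, and limma 1 and 0. B cell markers summed to 735.0 to 911.5 FPKM in Con, 584.4 to 717.3 in Van and 589.8 to 825.3 in VanLip. Ighm, the immunoglobulin heavy chain, was called lower in Van, with a log2 change of -0.52 against Con (DESeq2 adjusted p = 1.69e-05). There edgeR also called Ighm, while limma called 0 of the B cell markers. Ighm was called lower in VanLip than in Con as well, with -0.36, where edgeR and limma called 0 of the B cell markers. Dendritic cell and neutrophil markers each stayed under 50 FPKM in sum. Of 6 dendritic cell markers, Clec9a, Xcr1 and Siglech were called lower in Van than in Con, by 2.17-fold, 1.80-fold and 1.85-fold, and Clec9a and Siglech were called higher in VanLip than in Van, again the reverse of the chaperones. Xcr1 and Cd209a were called lower in VanLip than in Con. Of the neutrophil markers, Retnlg was called lower in Van than in Con and Ngp lower in VanLip than in Con. For these dendritic cell and neutrophil markers edgeR called 1 and 0 in Van against Con and 0 in both contrasts with VanLip, and limma called 0 in each contrast. The part of these cells in the chaperone levels was not tested.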

How the data were processed

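Per the labels and the study's methods, the authors aligned stranded, paired messenger RNA reads to GRCm38 with HISAT2 2.2.1, sorted them with SAMtools 1.9 and estimated levels with StringTie 2.1.3. They deposited FPKM values per gene, and expected counts per gene made with tximport 1.26.1, which are not normalized. The annotation release is not given in the sources used here, and GENCODE M21 matched 99.0% of the 26108 genes above 0. Every count column matched 1 sample title, and no libraries were identical.

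After rounding of the expected counts, DESeq2 1.42.0 in R 4.3.3 gave Wald tests with all 9 libraries in 1 fit, group as the only term and Benjamini-Hochberg adjustment over all genes. Tests are two-sided, and intervals are at the 95% level from the fitted SE. FPKM values served for levels.

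The members and gene lists were chosen with earlier results of these data known. All members, Hsf1 and the 10 genes most like the members are named, and list genes called in a contrast at 0.05 could be named (up to 5 per list and contrast). Hspa9, Ly6g, Ppbp, Pf4 and Itga2b were added after their values were seen. From the lists, 1 gene is not reported here and was left out of the counts. Alternatives were edgeR 4.0.16 and limma 3.58.1 on quantile-normalised log2(FPKM + 1) or log2(FPKM + 0.1), other scalings, filters, fragments, thinned VanLip libraries (20146290 fragments), protein-coding genes, summed Hspa1a and Hspa1b, a replicate block and leaving out each library. The steps were tested on simulated data. Fragments numbered 16151385 to 23018927 in Con and Van libraries and 42625868 to 46180176 in VanLip.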

Additional observations from a re-analysis of the deposited data

How the results depend on the processing

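The number of chaperone genes called in Van against Con was 7 with DESeq2, which called 803 of 18516 genes tested. With limma on log2(FPKM + 1) it was 3, where 92 of 26108 genes were called. It was 1 with log2(FPKM + 0.1), where 17 of 26108 were called, and 4 after a filter on a mean FPKM of 1, where 90 of 11710 were called. So calls fell among all genes as well as among the chaperones. The fitted changes stayed positive for the 7 genes called with DESeq2, and why fewer genes passed was not tested. In VanLip against Con the number of chaperone genes called was 1 instead of 2 with Hspa1a and Hspa1b summed, since they then count as 1 gene. Leaving out 1 library gave 6 to 7, 2 to 5 and 8 to 9 called genes in Van against Con, VanLip against Con and VanLip against Van. The medians were then 0.43 to 0.59, with 0.59 without Con replicate 3, -0.20 to -0.08, and -0.78 to -0.70.

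The call of Hspe1 in Van against Con was lost with edgeR (adjusted p = 0.136), TMM library sizes (0.0506), no independent filtering (0.0629), fragments (0.0542), thinned VanLip libraries (0.0531) and all 3 forms of limma. It was also lost without Con replicate 1 or 2, Van replicate 2 or 3, or VanLip replicate 2. In VanLip against Van, Hspe1 lost its call with edgeR (0.0855), thinned VanLip libraries (0.0811) and all 3 forms of limma, Hspd1 with limma on log2(FPKM + 1) (0.0585) and on log2(FPKM + 0.1) (0.0737), and Hsp90ab1 with the latter (0.0529). Hsp90aa1 was called in VanLip against Con with a count filter (adjusted p = 0.0434), in protein-coding genes (0.0356), and without Con replicate 2 or VanLip replicate 3. Hsph1 was called there without VanLip replicate 2 or 3.

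Signs that turned belonged to changes that were not called. In VanLip against Con, TMM gave 0.00 for Hspa4 and 0.01 for Hspd1, limma gave 0.00 for Hspd1 and -0.03 for Hspe1 in all 3 forms, and protein-coding genes gave -0.01 for Hspe1. With 1 library left out, Van against Con ran from -0.22 to 0.52 for Hspa1a, -0.11 to 0.58 for Hspa1b and -0.10 to 0.00 for Hspa4, with the lowest values of Hspa1a and Hspa1b without Con replicate 2. VanLip against Con ran from -0.09 to 0.04 for Hspa4, -0.05 to 0.17 for Hspa4l, -0.11 to 0.05 for Hspd1 and -0.04 to 0.06 for Hspe1, and VanLip against Van from -0.03 to 0.09 for Hspa4.

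Same-numbered libraries shared only a number, as correlations of their deviations ran from -0.065 to 0.123. With the replicate block, 7, 2 and 9 chaperone genes were called and medians were 0.48, -0.14 and -0.75, and no member's call changed.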
